A study of Homo sapiens with 8 samples.

Results

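The transcripts described here are those of the human mitochondrial genome, measured in HepG2 cells, a line established from a hepatocellular carcinoma. They were chosen by position: every gene of the count table that GENCODE 44 places on the mitochondrial chromosome of GRCh38. The rule gave 37 of the 86369 genes in the table, namely 13 mRNAs, 2 ribosomal RNAs (rRNAs) and 22 transfer RNAs (tRNAs), and it left out the nuclear pseudogenes of mitochondrial genes. All cells received a short interfering RNA (siRNA) by lipofection, and RNA was taken 2 days later. The labels name no other treatment and no genetic change. The siCtrl group (4 libraries) received a negative control siRNA. The siNAT10 group (4 libraries) received an siRNA against NAT10, an RNA cytidine acetyltransferase. Replicates 1 and 2 of both groups carry the label batch 1 and replicates 3 and 4 the label batch 2, and the labels do not say what a batch was. Whether the replicates were separate cultures is not stated, so p-values measure the spread between these libraries, which may be technical.

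The libraries came from a kit that primes on poly(A) and reads the 3′ end of RNAs, so most counts of a polyadenylated transcript should come from near its end. Libraries held between 9731718 and 27977110 counts. Levels are given as CPM, counts relative to a library size corrected by TMM, a scaling in edgeR. A gene was called when the edgeR quasi-likelihood test, with batch and siRNA as terms, gave an adjusted p under 0.05 over all 13840 genes tested. NAT10 stood at 44.6, 39.1, 77.7 and 48.9 CPM in siCtrl replicates 1 to 4 and at 13.1, 12.2, 20.1 and 22.3 CPM in siNAT10 replicates 1 to 4, with no overlap between the groups (log2 fold change -1.66, standard error 0.14, edgeR adjusted p 2.0e-05). Of 9 hepatocyte markers, 8 passed the low-count filter, from ALB at 3228 to 4621 CPM down to SERPINA1 at 1.70 to 13.2 CPM. APOB was at 0 counts in all libraries but siCtrl replicate 3 (0.33 CPM). Of 8 markers of leukocytes, endothelium, fibroblasts and squamous epithelium, 5 were at 0 in every library, and the highest value of any was 0.65 CPM (PECAM1).

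The mitochondrial genome is transcribed from both strands into long precursors. Most mRNAs and the rRNAs are flanked by tRNAs, whose excision frees them. Most of the mature mRNAs then receive short poly(A) tails, which stabilise many of them and complete stop codons that the genome leaves unfinished. The 13 mRNAs encode core subunits of the respiratory chain and the ATP synthase, the rRNAs build the mitochondrial ribosome and the tRNAs serve it. All other proteins of the mitochondrion are made from nuclear genes. Hepatocytes are rich in mitochondria.

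The 3′ ends of the mRNAs matter here because the kit reads them. The annotated ends are those of the coding sequences, and where the RNAs themselves end was not tested. Each sequence below gives the 20 bases before and the 10 bases after a gene's annotated end (GRCh38 mitochondrial chromosome, 5′ to 3′ on the gene's strand). Capitals mark the stop codon, or the part of it that the genome holds.
MT-ND3: aggattagactgaaccgaaTtggtatatag
MT-CYB: caaaatactcaaatgggccTgtccttgtag
MT-ND4: cattaccgggttttcctctTgtaaatatag
MT-ND1: agcattccccctcaaaccTAagaaatatgt
MT-CO2: ggcccgtatttaccctaTAGcaccccctct
MT-CO1: ccgtatacataaaatctAGAcaaaaaagga
MT-ATP6: acctgcacgacaacacaTAAtgacccacca
MT-ND5: ccctactcctaatcacaTAAcctattcccc
MT-ND6: agattgctcgggggaatAGGttatgtgatt

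Of the 13 annotated coding sequences, 6 stop inside a codon: MT-ND1 ends with TA, and MT-ND2, MT-CO3, MT-ND3, MT-ND4 and MT-CYB end with T. The other 7 end on a full codon. The genes lie close together, and this bears on how reads were assigned. MT-ATP8 and MT-ATP6 share 46 bases and MT-ND4L and MT-ND4 share 7 bases, so reads in those stretches are ambiguous between them. The annotated ends of MT-ATP8 (8572) and MT-ND4L (10766) lie inside the next gene and need not be ends of an RNA. Where the reads counted for these genes were primed was not tested. MT-ND6 (14149 to 14673) is the only mRNA on the minus strand of the reference, and its annotated end adjoins that of MT-ND5 (12337 to 14148, plus strand). Whether counting used strand is not stated, so reads from the opposite strand of MT-ND6 cannot be told apart from its own.

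MT-CO2, MT-ND3 and MT-CYB took most of the mitochondrial mRNA counts in these 3′-end libraries. The first of these, which encodes subunit 2 of cytochrome c oxidase (complex IV), made up 42.0% to 54.4% of the counts of the 13 mRNAs. MT-ND3, a small subunit of NADH dehydrogenase (complex I), made up 20.7% to 29.4%, and MT-CYB, the cytochrome b of complex III, 7.37% to 13.4%. Together they took 76.0% to 85.4% of the mRNA counts of a library. Averaged over the libraries, the lowest shares were those of the complex I subunits MT-ND6 (0.187% to 0.549%) and MT-ND2 (0.301% to 0.506%). The range of MT-ATP8 (0.249% to 0.814%) overlapped theirs, and it was the lowest in siNAT10 replicate 3.

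**Figure D1:**
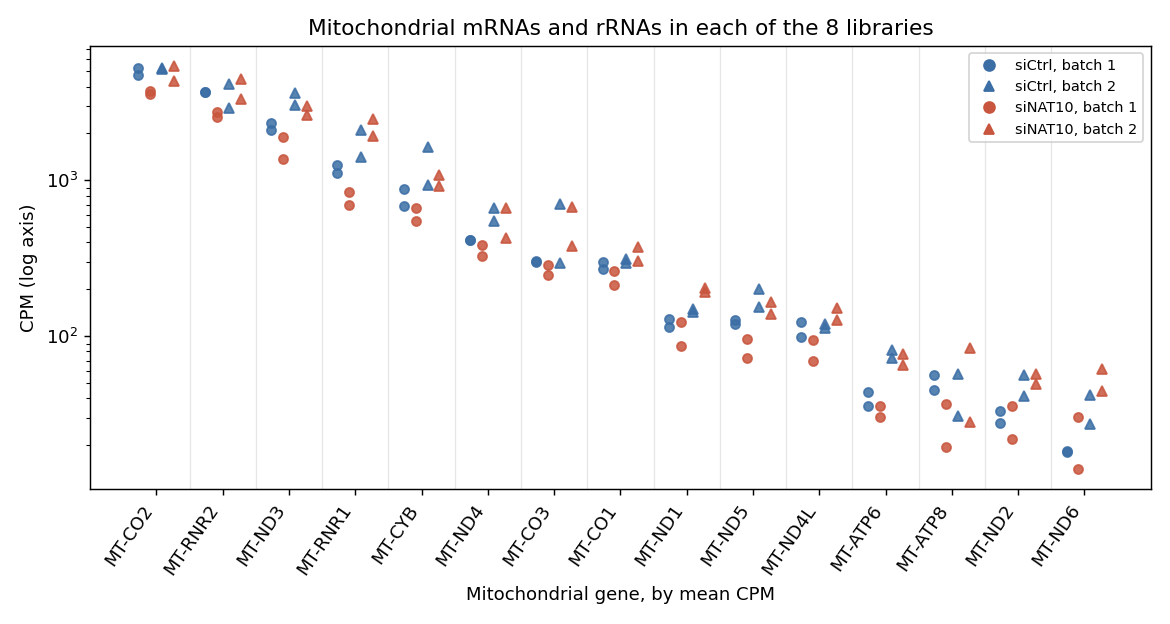
CPM (log axis) of the 13 mitochondrial mRNAs and 2 rRNAs in each library, ordered by mean. Blue marks siCtrl and red siNAT10, circles mark batch 1 and triangles batch 2. Genes span a wide range, from MT-CO2 (4686 CPM on average) to MT-ND6 (32.2 CPM), while libraries of 1 gene differ far less.

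Per kilobase of gene the order was similar at its ends. Counts from 3′ ends need not grow with gene length, so the values per kb do not measure relative transcript abundance. Averaged over the 8 libraries, MT-ND3 stood at 7226 CPM per kb, MT-CO2 at 6851, MT-RNR2 (the large-subunit rRNA) at 2205, MT-RNR1 (the small-subunit rRNA) at 1551 and MT-CYB at 806. The 4 lowest of these 15 genes were MT-ATP6 at 81.4, MT-ND5 at 74.3, MT-ND6 at 61.3 and MT-ND2 at 38.8 CPM per kb. MT-CO1, which encodes the catalytic subunit of complex IV, stood at 189 CPM per kb. In counts, MT-CO2 exceeded MT-CO1 by 11.7-fold to 19.5-fold in each library. Reads past an annotated end may be missed, so this ratio need not measure relative transcript abundance either. MT-ATP8 and MT-ATP6, which encode ATP synthase subunits and are carried on 1 transcript, stood at 217 and 81.4 CPM per kb.

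The nuclear genome holds copies of mitochondrial DNA, and a read that matches such a copy as well as its gene may be lost in counting. Over the last 150 bases of the gene, 7 of the 13 mRNAs had a nuclear stretch at least 95% identical. MT-ND1 matched over all 150 bases, and the identity was 99.3% for MT-CO1, 98.0% for MT-ATP6, 97.3% for MT-ATP8, 96.7% for MT-ND2 and 96.0% for MT-CO2 (all on chromosome 1), and 96.0% for MT-ND6 (chromosome 5). The best match was 84.7% for MT-ND3, 84.0% for MT-CYB and 86.7% for MT-CO3, which encodes subunit 3 of complex IV. MT-RNR1 had a copy at 98.7% and MT-RNR2 at 84.0%. The counts of the genes with close copies are uncertain where a read spans no differing base. Among the mRNAs the fewest bases differ in MT-ND1 and MT-CO1 (150 and 149 of 150 identical), beside 144 identical in MT-CO2. The part of the copies in the order of levels was not tested. Of the nuclear pseudogenes, MTCO2P12 was counted at 4.21 to 9.26 CPM and MTCO1P12 at 4.15 to 11 CPM, beside at least 3598 CPM for MT-CO2 and 213 CPM for MT-CO1. MTATP6P1 was counted at 4.34 to 11.4 CPM beside 30.2 to 82.3 CPM for MT-ATP6, MTND1P23 at 1.15 to 7.65 CPM and MTND2P28 at 0.627 to 1.95 CPM. Internal runs of A can also prime the kit. The longest run was 8 bases in MT-ND5, 7 in MT-RNR2, MT-CO1, MT-ND2 and MT-ND4, 5 in MT-CO2 and MT-ND3, and 4 in MT-CYB, and the part of such runs in the levels was not tested.

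The mitochondrial genes took a small part of each library, and this share varied with batch. All 37 genes held 1.52%, 1.49%, 1.64% and 1.83% of the counts in siCtrl replicates 1 to 4 and 1.18%, 1.06%, 1.72% and 1.91% in siNAT10 replicates 1 to 4. Both siNAT10 libraries of batch 1 lay below both of its siCtrl libraries, whereas in batch 2 the groups overlapped. The 95% Wilson intervals extend at most 0.0085 percentage points to either side and cover counting error only. The 13 mRNAs held 1.05% ± 0.114 of the counts in siCtrl and 0.912% ± 0.224 in siNAT10 (SD, n = 4 each). These SDs include the difference between batches. Within batch 1 the mRNA share was 0.978% and 0.934% in siCtrl and 0.758% and 0.681% in siNAT10, without overlap. Within batch 2 it was 1.17% and 1.13% in siCtrl and 1.11% and 1.09% in siNAT10, also without overlap. Most of this sum (76.0% to 85.4%) comes from MT-CO2, MT-ND3 and MT-CYB. In batch 2 alone, 7 of the 13 mRNAs had positive fitted log2 fold changes (siNAT10 minus siCtrl) and 6 had negative ones. By batch the 13 mRNAs held 0.838% ± 0.141 in batch 1 and 1.13% ± 0.0308 in batch 2 (SD, n = 4 each). The rRNAs held 0.502% ± 0.084 in siCtrl and 0.484% ± 0.186 in siNAT10, and the tRNAs 0.0654% ± 0.0114 and 0.0723% ± 0.021. Within batch 2 the mean rRNA share was higher in siNAT10 (0.625%) than in siCtrl (0.514%), with overlap (n = 2 each). These sums are descriptions and were not tested. In bulk RNA, a lower share from fewer mitochondrial transcripts per cell and one from fewer cells with many of them cannot be told apart.

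**Figure D2:**
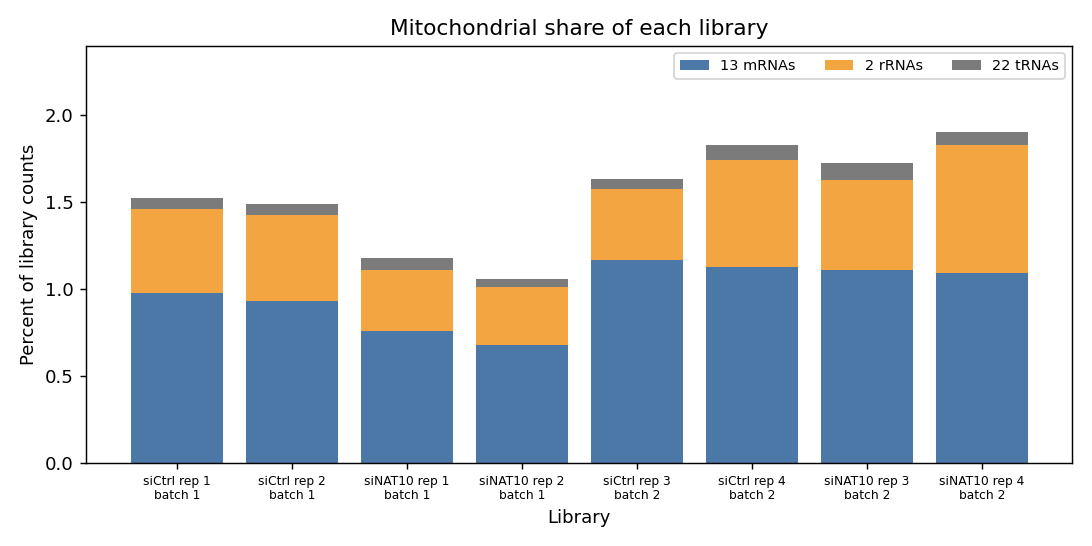
Percent of all counts of a library that fell on the 13 mitochondrial mRNAs (blue), 2 rRNAs (orange) and 22 tRNAs (grey), stacked from 0. The siNAT10 libraries of batch 1 are the 2 lowest bars (1.18% and 1.06%), and all batch 2 bars lie at 1.64% or above.

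Mitochondrial transcripts were higher in batch 2 than in batch 1. Of the 23 mitochondrial genes that passed the low-count filter, 15 were called higher in batch 2 and 0 lower (edgeR quasi-likelihood test), where 25.3% of all tested genes were called, 13% higher and 12.2% lower. The 15 were 10 of 13 mRNAs, 1 of 2 rRNAs and 4 of 8 tested tRNAs. The median log2 difference of the 13 mRNAs was 0.68, beside -5.9e-05 over all genes tested. In 7 mRNAs (MT-ND1, MT-ND2, MT-ND3, MT-ND4, MT-ND5, MT-ATP6 and MT-CYB), MT-RNR1, MT-TF and MT-TS1 the 4 batch 2 libraries all lay above the 4 batch 1 libraries, a pattern shown by 11.4% of all tested genes. The opposite order was shown by 0 of the 23 and by 11.2% of all tested genes. Leaving out each library in turn left 12 to 19 mitochondrial genes called, and the siCtrl libraries alone, 2 against 2, gave 6 (MT-ND2, MT-ND6, MT-ATP6, MT-TF, MT-TL1 and MT-TS1), where 9.97% of the genes in that fit were called. With no low-count filter 18 were called (12.8% of the genes in that fit), the additional ones being MT-ATP8, MT-TP and MT-TY. Of the 5 nuclear pseudogenes, MTND1P23 (log2 difference 1.76, edgeR adjusted p 1.4e-04), MTATP6P1 (0.87, edgeR adjusted p 0.0011) and MTCO1P12 (0.74, edgeR adjusted p 0.039) were also called higher in batch 2, and their part in the result was not tested. HNF4A (log2 difference 0.67, edgeR adjusted p 2.4e-04) and SERPINA1 (1.44, edgeR adjusted p 0.0098) were the hepatocyte markers called between batches, both higher in batch 2, and their part in the result was not tested.

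All 7 complex I subunits were called higher in batch 2. For MT-ND6, reads of the opposite strand cannot be told apart from its own. MT-ND6 stood at 18.2, 18.5, 30.2 and 14.2 CPM in batch 1 (siCtrl replicates 1 and 2, then siNAT10 replicates 1 and 2) and at 27.6, 42.3, 61.9 and 44.7 CPM in batch 2 (replicates 3 and 4, in the same order). Its batch ranges overlapped only through siNAT10 replicate 1, and its log2 difference was 1.10 (standard error 0.20, edgeR adjusted p 8.5e-04). MT-ND5 stood at 120, 127, 96.2 and 72.3 CPM in batch 1 and at 202, 155, 139 and 165 CPM in batch 2, with no overlap (log2 difference 0.689, standard error 0.13, edgeR adjusted p 9.3e-04). The other 5 had log2 differences from 0.42 (MT-ND4L) to 0.78 (MT-ND2). The call of MT-ND4L was lost in 6 of 8 fits that left out 1 library, all but those without siCtrl replicate 2 or siCtrl replicate 3, and with library size alone (adjusted p 0.064).

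Outside complex I the differences were less even. MT-ATP6 stood at 44.2, 35.6, 35.6 and 30.2 CPM in batch 1 and at 72.7, 82.3, 65.1 and 77.5 CPM in batch 2. It had the lowest adjusted p of the mitochondrial genes (log2 difference 1.03, standard error 0.11, edgeR adjusted p 1.3e-05), and its batches lay well apart. MT-ATP8, encoded on the same transcript, stood at 39.6 ± 15.7 and 50.3 ± 26.5 CPM in batches 1 and 2 (SD, n = 4). It was not called (log2 difference 0.38, standard error 0.31, edgeR adjusted p 0.40), but was with no low-count filter (0.355, standard error 0.125, edgeR adjusted p 0.039). MT-CYB was called higher (694 ± 139 and 1147 ± 339 CPM, SD, n = 4). In complex IV, MT-CO3 was called higher with a log2 difference of 0.86, but lost the call without siCtrl replicate 4 (edgeR adjusted p 0.054). MT-CO2 (log2 difference 0.24, adjusted p 0.15) and MT-CO1 (0.30, adjusted p 0.074) were not called with all libraries, and MT-CO1 was called without siCtrl replicate 3 (adjusted p 0.038).

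**Figure D3:**
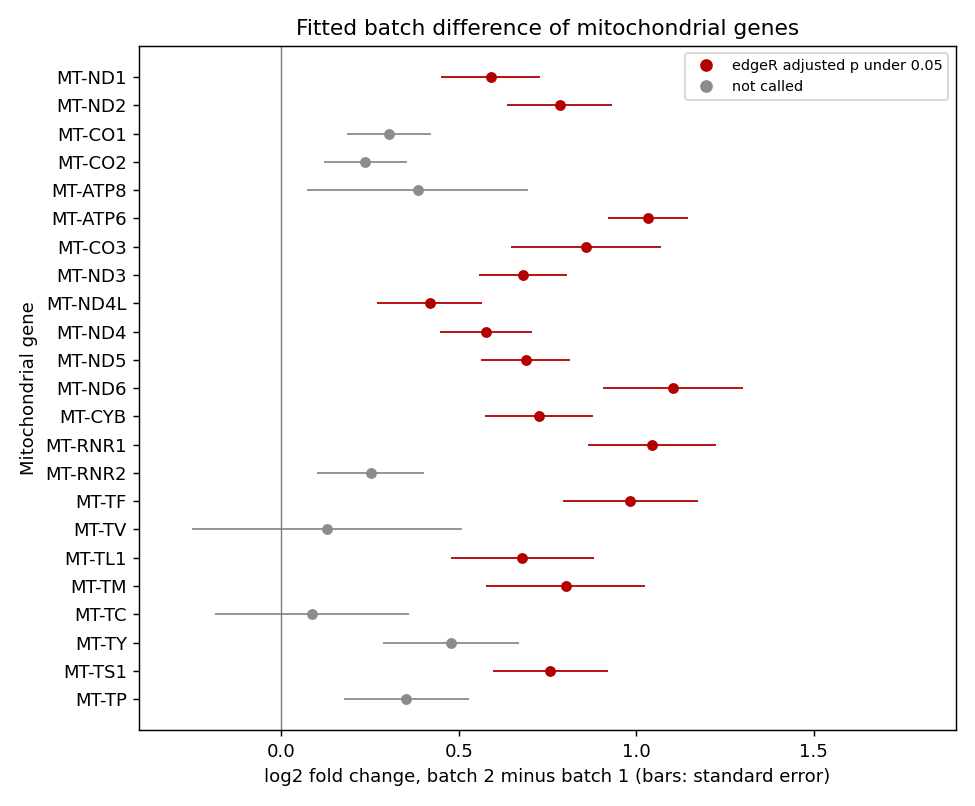
Fitted log2 difference between batch 2 and batch 1 for the 23 tested mitochondrial genes, with standard errors, from edgeR on all 8 libraries with siRNA as a term. Red points passed an adjusted p of 0.05 (15 genes) and grey points did not. All 23 points lie to the right of 0.

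The rRNAs differed from each other between the batches. MT-RNR1, the small-subunit rRNA, stood at 1123, 1251, 837 and 699 CPM in batch 1 (siCtrl, then siNAT10) and at 1416, 2108, 1925 and 2475 CPM in batch 2. Every batch 2 library lay above every batch 1 library (log2 difference 1.04, standard error 0.18, edgeR adjusted p 6.4e-04). MT-RNR2, the large-subunit rRNA, stood at 3695, 3670, 2735 and 2542 CPM in batch 1 and at 2933, 4127, 3302 and 4501 CPM in batch 2, with overlap (0.25, standard error 0.15, edgeR adjusted p 0.24). Without siCtrl replicate 3 it was called (0.41, adjusted p 0.030). The ratio of MT-RNR2 to MT-RNR1 counts was 3.29, 2.93, 3.27 and 3.64 in batch 1 and 2.07, 1.96, 1.72 and 1.82 in batch 2, so the batches did not overlap. Both rRNAs come from 1 precursor, with a tRNA between them.

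With the NAT10 siRNA, 0 of the 23 tested mitochondrial genes passed the edgeR quasi-likelihood test, where 2.28% of all tested genes were called, 0.816% higher and 1.46% lower. DESeq2 also called 0. In edgeR, 6 of the 23 had an unadjusted p under 0.05, where 15.7% of all tested genes did: MT-ND5, MT-ND3, MT-CYB and MT-CO2 at lower levels and MT-ND6 and MT-TM at higher levels. The fitted value was negative for 10 of 13 mRNAs and for 6968 of all 13840 genes tested. The mRNAs share the same libraries, so their signs are not independent, here and below. Their median log2 fold change was -0.18, beside -0.0024 over all genes tested. Single libraries deviated from the mean of their group and batch in this median by an SD of 0.17 (log2), and without siNAT10 replicate 2 the median was 0.021. Of the 23 genes, 0 had all 4 siNAT10 libraries below the 4 siCtrl libraries (3.15% of all tested genes) and 0 had all 4 above (2.25%). The summed level of the 9 hepatocyte markers was 9374 to 9855 CPM in siCtrl and 7545 to 8122 CPM in siNAT10. ALB, TF and AFP had the highest levels in this sum. Of the 8 tested markers, 6 had negative values and 2 positive ones, FGB (0.37) and HNF4A (0.09). Only TF, the gene of the iron carrier transferrin, was called, at a lower level (log2 fold change -0.49, edgeR adjusted p 0.023). The part of the marker levels in the mitochondrial values was not tested.

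Among complex I subunits, MT-ND5, its largest mitochondrially encoded one, had the lowest adjusted p. It stood at 120, 127, 202 and 155 CPM in siCtrl replicates 1 to 4 and at 96.2, 72.3, 139 and 165 CPM in siNAT10 replicates 1 to 4 (log2 fold change -0.395, standard error 0.13, edgeR adjusted p 0.11). In batch 2, siNAT10 replicate 4 lay between the siCtrl values. MT-ND3 stood at 2119, 2351, 3613 and 3045 CPM in siCtrl and at 1887, 1371, 3007 and 2609 CPM in siNAT10 (-0.35, standard error 0.12, edgeR adjusted p 0.16). It was the only mRNA with each siNAT10 library below both siCtrl libraries of its batch, which 7.9% of all tested genes showed. MT-ND6 stood at 18.2, 18.5, 27.6 and 42.3 CPM in siCtrl and at 30.2, 14.2, 61.9 and 44.7 CPM in siNAT10 (0.44, standard error 0.20, edgeR adjusted p 0.28). The MT-ND6 values of batch 1 overlapped, with siNAT10 replicate 2 the lowest library. Reads of the opposite strand may be among the MT-ND6 counts. MT-ND1, MT-ND2, MT-ND4L and MT-ND4 had log2 fold changes of 0.10, 0.019, -0.09 and -0.18.

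In the other complexes, MT-CYB stood at 881, 686, 1643 and 934 CPM in siCtrl and at 661, 546, 1084 and 926 CPM in siNAT10 (log2 fold change -0.37, standard error 0.15, edgeR adjusted p 0.24). MT-CO2 stood at 5261, 4723, 5236 and 5156 CPM in siCtrl and at 3736, 3598, 5409 and 4369 CPM in siNAT10 (-0.27, standard error 0.12, edgeR adjusted p 0.28). The batch 1 libraries of each gene were lower in siNAT10, and those of batch 2 overlapped. MT-CO1 and MT-CO3 had log2 fold changes of -0.06 and -0.05, and MT-ATP6 and MT-ATP8 of -0.20 and -0.26. When low-count genes were not filtered out, MT-ND3, MT-ND5, MT-CYB (edgeR adjusted p from 0.026 to 0.030) and MT-ND6 (0.038) were called, where 2.13% of the genes in that fit were, with log2 fold changes of -0.36, -0.40, -0.38 and 0.44. Their standard errors there were 0.102, 0.116, 0.107 and 0.129, beside 0.124, 0.125, 0.151 and 0.197 with the filter. Over the 19 alternatives run, the adjusted p of these genes reached 0.81 for MT-ND3, 0.83 for MT-ND5, 0.82 for MT-CYB and 0.84 for MT-ND6.

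**Figure D4:**
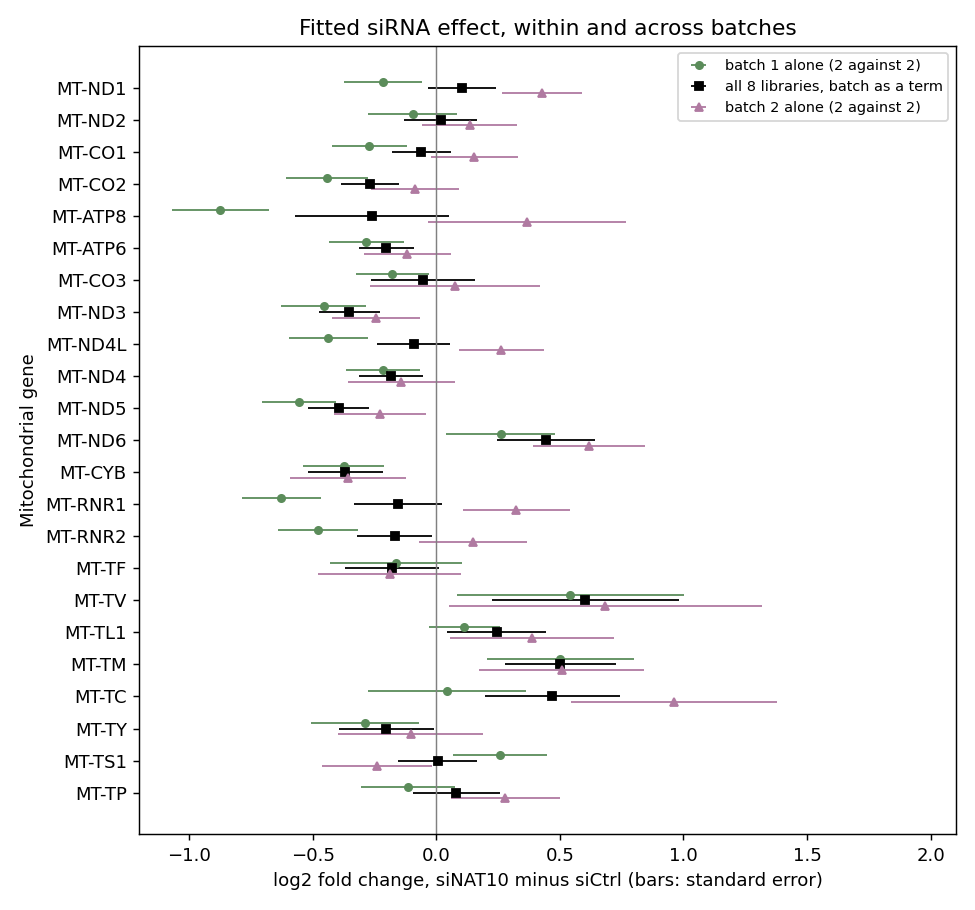
Fitted log2 fold change of siNAT10 against siCtrl for the 23 tested mitochondrial genes, with standard errors, for all 8 libraries (black squares), batch 1 alone (green circles) and batch 2 alone (purple triangles). For the mRNAs and rRNAs other than MT-ND6, all batch 1 values lie left of 0, while 8 of the same genes lie right of 0 in batch 2.

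The siRNA contrast looked different in the 2 batches, but the difference did not pass the test. In batch 1 alone, 12 of 13 mRNAs and both rRNAs had negative values, with a median of -0.28 for the mRNAs. Of the genes tested both there and with all libraries, 6969 of 13782 had negative values. MT-ATP8 (log2 fold change -0.87, standard error 0.20, edgeR adjusted p 0.025) and MT-RNR1 (-0.63, standard error 0.16, edgeR adjusted p 0.049) were called lower (edgeR adjusted p up to 0.972 and 0.998 over the alternatives), where 1.19% of the genes tested in that batch were called. In 9 of 13 mRNAs and both rRNAs, both siNAT10 libraries of batch 1 lay below both siCtrl libraries, a pattern that 22.4% of all tested genes showed. In MT-TL1 and MT-TM both lay above, as in 20.5% of all tested genes. In batch 2 alone 0 mitochondrial genes were called by edgeR, as for all genes (0.0%), and 3 had an unadjusted p under 0.05 (MT-ND1, MT-ND6 and MT-TC, all higher), where 7.04% of all tested genes did. There 7 of 13 mRNAs and both rRNAs had positive values, and MT-ND3 was the only mRNA with both siNAT10 libraries below both siCtrl libraries (18.5% of all tested genes). MT-ND1, MT-ND4L, MT-ND6 and MT-TC had both above (18% of all tested genes).

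A test of the difference itself, the interaction term, called 0 of the 23 genes and 0.0% of all tested genes. It was positive in all 13 mRNAs and both rRNAs, and in 6916 of all 13840 tested genes. The mitochondrial genes share the same 8 libraries, so these signs are not independent of each other. The interaction had a median of 0.325 for the mRNAs beside -2.3e-04 over all genes. Its unadjusted p was under 0.05 for 5 of the 23, where 3.04% of all tested genes were. These were MT-RNR1 (0.95, standard error 0.28), MT-RNR2, MT-ND1, MT-ND4L and MT-ATP8, each with an edgeR adjusted p of 0.9996. DESeq2 called 0 mitochondrial genes for the interaction. With no low-count filter MT-ATP8 was called (1.20, standard error 0.253, edgeR adjusted p 0.0077), as were 0.0537% of the genes in that fit. With the filter its value was similar (1.23) and its standard error larger (0.551). In 1 or more of the fits that left out 1 library, the interaction turned negative for MT-ND2, MT-ND3, MT-ND4, MT-ND6, MT-CO3, MT-ATP6 and MT-CYB.

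Of the 22 tRNAs, 8 passed the filter, 12 others had fewer than 100 counts over all 8 libraries and 2 (MT-TN and MT-TK) had 0. Mature tRNAs carry no poly(A) tail, so their counts here do not measure mature tRNA. MT-TP, the tRNA for proline (15956 to 16023, minus strand), took 80.1% to 91.9% of the tRNA counts of a library. It stood at 558, 540, 502 and 720 CPM in siCtrl replicates 1 to 4 and at 652, 361, 883 and 600 CPM in siNAT10 replicates 1 to 4, with overlap in both batches. Without the strand setting, its reads cannot be told apart from those of transcripts of the opposite strand. Of the other tested tRNAs, MT-TL1, the leucine tRNA that follows MT-RNR2, was the highest on average (42.9 CPM), and MT-TS1, MT-TY, MT-TF, MT-TM, MT-TC and MT-TV lay between 17.7 and 1.26 CPM.

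For the siRNA, 0 of the 8 tested tRNAs were called by edgeR (6 values positive, 2 negative, 1 with an unadjusted p under 0.05). That one was MT-TM, the methionine tRNA, at 3.30, 2.07, 3.74 and 5.92 CPM in siCtrl and 4.21, 3.58, 5.40 and 8.20 CPM in siNAT10 (log2 fold change 0.503, standard error 0.22, edgeR adjusted p 0.28). The groups overlapped. Between batches, MT-TF (0.98), MT-TM (0.80), MT-TS1 (0.76) and MT-TL1 (0.68) were called higher in batch 2. MT-TS1 lies on the minus strand (7446 to 7514) and adjoins the end of MT-CO1 on the plus strand, so reads of the opposite strand cannot be told apart from its own either. The call of MT-TL1 was lost in 4 of 8 fits that left out 1 library (without siCtrl replicate 1 or siNAT10 replicate 1, 2 or 4) and that of MT-TM in 3 (without siCtrl replicate 2 or 4 or siNAT10 replicate 2). DESeq2 did not call MT-TL1 (adjusted p 0.12). Without siCtrl replicate 3, MT-TY (0.63, edgeR adjusted p 0.022) and MT-TP (0.49, edgeR adjusted p 0.040) were called, and MT-TY also without siNAT10 replicate 3 (adjusted p 0.049). Both were called with no low-count filter as well (MT-TY 0.45, edgeR adjusted p 0.042, and MT-TP 0.33, edgeR adjusted p 0.027).

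Libraries of 1 group and batch also differed, and in batch 2 partly in the same way in both groups. There, replicate 4 stood above replicate 3 in both groups for MT-ATP8 (30.6 and 57.4 CPM in siCtrl replicates 3 and 4, 28.4 and 84.7 CPM in siNAT10), MT-CO3 (296 and 708 CPM, then 379 and 675 CPM), both rRNAs, MT-ND4, MT-ND4L, MT-CO1 and MT-ATP6. Replicate 3 stood above replicate 4 in both groups for MT-CYB, MT-ND3, MT-ND2 and MT-CO2. So 10 of 13 mRNAs moved the same way in both groups, beside 57.9% of all genes tested. Between replicates 1 and 2 of batch 1 the same held for 4 of 13 mRNAs, beside 45.7% of all genes. The replicate 4 libraries were the shallower ones of their groups in batch 2 (14042898 and 9731718 counts), and the part of depth in these differences was not tested.

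**Figure D5:**
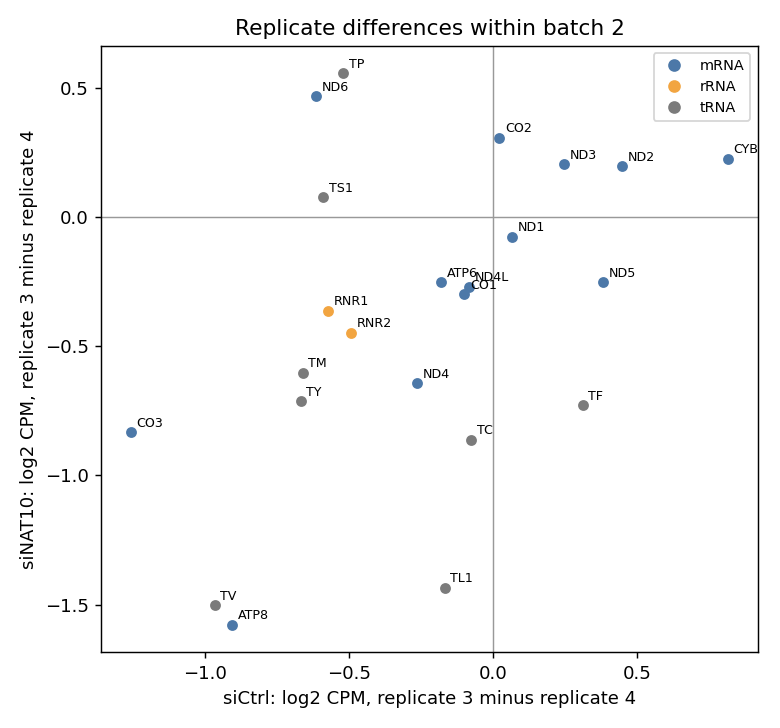
Difference in log2 CPM between replicates 3 and 4, both of batch 2, in siCtrl (x axis) and siNAT10 (y axis), for the 23 tested mitochondrial genes (MT- omitted from names, colours give the class). MT-CO3, MT-ATP8 and both rRNAs lie at lower left, MT-CYB, MT-ND3, MT-ND2 and MT-CO2 at upper right.

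The nuclear genes that make and turn over mitochondrial RNA were examined through 4 lists of 65 genes, of which 63 were tested. Between siNAT10 and siCtrl, 0 of the 63 were called in either direction by edgeR, where 2.28% of all tested genes were, and 5 had an unadjusted p under 0.05 with a higher and 1 with a lower level, where 15.7% of all tested genes did. In batch 1 alone (1.19% of all genes called there) GABPA, a transcription factor of nuclear genes for mitochondrial proteins, was called higher (0.705, edgeR adjusted p 0.030) and ANGEL2 lower (-0.77, edgeR adjusted p 0.049). ANGEL2 stood at 12.7, 15.4, 16.6 and 15.9 CPM in siCtrl replicates 1 to 4 and at 7.16, 9.13, 11.1 and 14.3 CPM in siNAT10 replicates 1 to 4. The siNAT10 libraries lay below the siCtrl libraries of their batch, as in 7.9% of all tested genes. Over both batches ANGEL2 missed the threshold (-0.57, edgeR adjusted p 0.055). The median log2 fold change was 0.022 for 14 transcription and genome maintenance genes, 0.044 for 21 cleavage and modification genes, -0.020 for 21 stability and turnover genes and 0.013 for 7 biogenesis regulators, beside -0.0024 over all genes tested. LRPPRC, which with SLIRP binds and stabilises mitochondrial mRNAs, stood at 189.8, 200, 174.8 and 176.4 CPM in siCtrl and at 217.5, 235.5, 182.1 and 207.0 CPM in siNAT10. Each siNAT10 library lay above both siCtrl libraries of its batch (log2 fold change 0.18, standard error 0.095, edgeR adjusted p 0.37), as in 6.76% of all tested genes. SLIRP had a log2 fold change of -0.05, POLRMT, the mitochondrial RNA polymerase, of -0.026, TFAM, which packages the mitochondrial genome and activates its promoters, of 0.0498, and MTPAP, the mitochondrial poly(A) polymerase, of 0.09. The edgeR adjusted p of these 4 lay between 0.72 and 0.94. In the batch comparison 18 of the 63 were called higher and 7 lower in batch 2, where 13% and 12.2% of all tested genes were. The 12 with the lowest adjusted p were PUS1, FASTKD2, PTCD1, TRNT1, TWNK, PPRC1, NRF1, SSBP1 and TRUB2, all higher (log2 differences 0.48 to 0.85), and PPARGC1A (-0.85), TFEB (-0.74) and TRMU (-0.57), all lower, with edgeR adjusted p from 1.0e-04 to 0.0039. TFAM was among the higher ones (log2 difference 0.40, edgeR adjusted p 0.0057), while POLRMT was not called (-0.30, edgeR adjusted p 0.061).

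The nuclear genes whose levels followed the summed mitochondrial mRNAs most closely were found by Pearson correlation of log2 CPM over the 8 libraries, after the mean of each batch was subtracted. Among 8643 genes with a mean of at least 8 CPM they were PIGX (r = 0.978), ABHD14A (0.973), TMEM167B (0.972), MEAK7 (0.963) and MET (0.963). The points share 2 batches and the siRNA contrast, and the genes were picked as the highest of many, so the values are a description. Of these 5, PIGX was called between siNAT10 and siCtrl (log2 fold change -0.592, edgeR adjusted p 0.021), and the other 4 had values from -0.41 to -0.29 with edgeR adjusted p from 0.11 to 0.25.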

How the data were processed

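RNA of 8 HepG2 libraries was measured by 3′-end sequencing. The deposited values are whole-number counts per gene, made by the authors with Trim Galore 0.6.10, cutadapt 3.5, STAR 2.7.9a on GRCh38 and featureCounts, per the submitters' processing notes. The annotation release, strand setting and handling of multi-mapping reads are not given in the sources used here, and the kit is named in 2 orientations. All 8 columns were matched to samples by the labels. Genes took names and positions from GENCODE 44 (61458 of 86369 matched). Tests used edgeR 4.0.16 in R 4.3.3: filterByExpr (minimum count 10), TMM, quasi-likelihood F test, Benjamini-Hochberg adjustment over all tested genes. The standard error came from the F statistic. The script was tested on simulated data. DESeq2 1.42.0 and the other alternatives are in the closing section. Sums over members were not tested. Nuclear copies were sought with BLAST over the last 150 bases of each gene.

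The members, gene lists and rules were chosen with earlier results of these data known. Named were all mRNAs and rRNAs, tRNAs with at least 100 counts in total, NAT10, 5 set pathway genes and up to 12 pathway list genes called in a comparison. Deviations of same-numbered libraries from their group means correlated over all tested genes (0.436, 0.429, 0.511 and 0.416 for replicates 1 to 4), but same-numbered libraries share a batch, which alone can give this. Within batches the difference between replicates correlated between groups at -0.0821 (batch 1) and 0.207 (batch 2), so pairing beyond batch was not shown for replicates 1 and 2. A model with the number as block was also run. Depth (9731718 to 27977110 counts) limits the low tRNAs most.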

Additional observations from a re-analysis of the deposited data

Results flagged for a closer look

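For each tested gene and each class share, the 4 libraries of a group were searched for 1 that lay far from the rest (Dixon's criterion). In 54 such sets 3 were found, where a rate of 1 in 20 gives about 2.7. That rate holds for 4 values with no grouping among them. Each set here holds 2 libraries of each batch, so 2.7 is only a rough guide. MT-TL1 stood at 87.6 CPM in siNAT10 replicate 4, against 32.4 to 34.2 CPM in the other siNAT10 libraries. MT-TC, the cysteine tRNA, stood at 4.98 CPM in the same library, against 2.46 to 2.84 CPM. MT-CO3 stood at 708 CPM in siCtrl replicate 4, against 296 to 304 CPM in the other siCtrl libraries. Both libraries are the shallower ones of their group in batch 2.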

How the results depend on the processing

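Between siNAT10 and siCtrl, 315 genes were called in all, and 15 without the batch term, 530 with DESeq2, 595 with no low-count filter, 173 in batch 1 alone and 0 in batch 2 alone (946 of 13433 at an unadjusted p under 0.05). Leaving out 1 library gave 75 to 286 genes. The replicate block gave 454 genes and 0 mitochondrial ones, and it changed no mitochondrial call. Mitochondrial genes called numbered 0 in each fit that left out 1 library, 4 with no filter and 2 in batch 1 alone. The median of the mRNAs ran from -0.265 to 0.0206 over the fits that left out 1 library and was 0.075 in batch 2 alone. Their summed share of counts was 0.14 percentage points lower in siNAT10 (main value -0.14) and ran from -0.16 to -0.121 without 1 library. Most of this sum comes from MT-CO2, MT-ND3 and MT-CYB. For the interaction, 0 genes were called, 1 with DESeq2, 15 with no filter (1 of them mitochondrial) and 0 to 2 without 1 library. Between batches 3500 genes were called, 2531 to 3627 without 1 library and 1279 in the siCtrl libraries alone, of which 6 were mitochondrial.

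Single genes changed direction as follows. In batch 1 alone MT-ND1, MT-ND2 and MT-TP were at -0.215, -0.0956 and -0.114. In batch 2 alone MT-RNR1, MT-RNR2, MT-CO1, MT-TS1, MT-ATP8, MT-CO3 and MT-ND4L were at 0.325, 0.149, 0.155, -0.239, 0.367, 0.075 and 0.263. Without the batch term MT-RNR1 and MT-TS1 were at 0.00873 and -0.0652, and thinned MT-TS1 was at -0.08. With no filter the MT-CYB interaction was -0.00932. In the siCtrl libraries alone the batch differences of MT-RNR2, MT-TC and MT-ATP8 were -0.0542, -0.374 and -0.215. Over the fits that left out 1 library, siRNA values changed sign for MT-ATP8 (-0.773 to 0.0401), MT-CO1 (-0.161 to 0.0445), MT-CO3 (-0.271 to 0.205), MT-ND2 (-0.107 to 0.174), MT-ND4L (-0.208 to 0.0743), MT-RNR1 (-0.352 to 0.00896), MT-TL1 (-0.119 to 0.459), MT-TP (-0.0709 to 0.273) and MT-TS1 (-0.164 to 0.18). Batch differences changed sign for MT-ATP8 (-0.126 to 0.683), MT-TC (-0.206 to 0.285) and MT-TV (-0.225 to 0.386). Interactions changed sign for MT-ATP6 (-0.00557 to 0.293), MT-CO3 (-0.257 to 1.01), MT-CYB (-0.336 to 0.471), MT-ND2 (-0.111 to 0.612), MT-ND3 (-0.0213 to 0.459), MT-ND4 (-0.307 to 0.346) and MT-ND6 (-0.123 to 0.99). Fits with fewer libraries test less, and other causes were not tested.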
